A study of Mus musculus with 36 samples.

Results

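Transcripts of 9 genes that mark myelin and the mature oligodendrocyte (Mbp, Mobp, Cnp, Mal, Cldn11, Mag, Mog, Opalin and Myrf) were followed in the brain of mice lacking Tpp1, which encodes a lysosomal tripeptidyl peptidase and whose loss causes the neuronal ceroid lipofuscinosis CLN2 in people. The genes were taken by their symbols, with no threshold on a measured value, and are 9 of the 55450, 53379 and 54146 genes in the annotations used at 1, 2 and 3 months of age. RNA-seq of polyadenylated RNA was performed on the forebrain/midbrain (F/M) and the cerebellum (Cb) of Tpp1-/- mice, in which gene targeting disrupted Tpp1, and of unaffected control littermates from a line kept by crossing heterozygotes. There were 3 replicates per region and genotype at each of the 3 ages, giving 12 groups of 3 libraries and 36 libraries in all. Controls were wild type except for replicate 3 at 1 month, which was Tpp1+/- in both regions. At 1 month replicate 1 was female and replicates 2 and 3 were male, at 2 months all mice were male, and at 3 months replicates 1 and 2 were male and replicate 3 was female, in both genotypes. The p-values below measure the spread among these biological triplicates.

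Oligodendrocytes wrap the axons of the central nervous system in compacted layers of membrane. Their precursors divide throughout the brain, exit the cycle, pass through a newly formed stage and then switch on a large set of genes for the proteins and lipids of the sheath. That switch is driven by the transcription factors Olig2, Sox10 and Myrf. Myelination in the mouse is most active in the first weeks after birth, and mature oligodendrocytes are dense in white matter tracts, midbrain and brainstem, so a dissection that takes in more or less of these carries more or less myelin RNA. In bulk tissue, fewer oligodendrocytes and less of an RNA per oligodendrocyte cannot be told apart.

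All 9 genes passed the filter on low counts at each age. Total counts per library ran from 10609896 to 29942380 (median 21049839), and the 9 genes together took 0.321% to 0.848% of a library (median 0.516%). Counts for Mbp ran from 35078 to 112593 per library, and for Opalin, the least abundant, from 117 to 817, so counting error weighed most on Opalin. The targeted gene followed the genotype labels. Tpp1 lay between 42.1 and 111 CPM (reads relative to library size) in the 18 control libraries and between 16.1 and 27.8 CPM in the 18 Tpp1-/- libraries. Some libraries stood apart in 9 genes listed for hindbrain and brainstem, called hindbrain genes below. In Cb at 3 months, control replicates 1 and 2 held 83.6 and 79.9 summed CPM of these genes. Control replicate 3 held 49.4 and the Tpp1-/- libraries at most 39.7. In F/M at 2 months, these genes summed to at most 15.5 CPM in controls and to 26.0 to 36.8 in Tpp1-/- mice. These values are given again beside the results they touch.

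The genes fall into parts of the sheath and the cell. Mbp (ENSMUSG00000041607, chr18:82475146-82585637 in GRCm38/mm10, plus strand) encodes myelin basic protein, which joins the cytoplasmic faces of the membrane into compact myelin. The gene also holds the Golli transcription unit, which is used outside oligodendrocytes and was not separated in gene counts. Mobp (ENSMUSG00000032517, chr9:120149707-120181484, plus strand) encodes a second small basic protein of compact myelin. Mal (ENSMUSG00000027375, chr2:127633226-127656695, minus strand) encodes a proteolipid that takes part in membrane sorting. Cldn11 (ENSMUSG00000037625, chr3:31149920-31164324, plus strand) encodes the claudin of the tight junctions between myelin layers. Cnp (ENSMUSG00000006782, chr11:100574904-100591729, plus strand) encodes a cyclic nucleotide phosphodiesterase that keeps cytoplasmic channels open in non-compact myelin. Mag (ENSMUSG00000036634, chr7:30899176-30914873, minus strand) encodes an adhesion glycoprotein on the membrane facing the axon. Mog (ENSMUSG00000076439, chr17:37010743-37023398, minus strand) encodes a glycoprotein on the outermost surface of the sheath, which appears late in maturation. Opalin (ENSMUSG00000050121, chr19:41062474-41077113, minus strand, with a start of 41061710 in the 1-month annotation) encodes a transmembrane glycoprotein of mature oligodendrocytes. Myrf (ENSMUSG00000036098, chr19:10208272-10240748, minus strand) encodes a membrane-bound transcription factor whose released N-terminal part activates myelin genes.

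All measured values are counts over the exons of a gene. Exons of Cnp overlapped those of Dnajc7 on the opposite strand over 154 bases (4.23% of the Cnp exon length), and those of Mobp overlapped Gm38642 on the same strand over 79 bases (1.15%), so a small share of reads there may be assigned differently.

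Upstream sequences are shown for Mog and Opalin, the genes that passed the test at 2 months, and for Mag, whose level moved most closely with that of another member (Cnp). The bases are those immediately before a RefSeq transcript start in GRCm38.p6, printed on the strand of the gene. Capitals mark letters of the core motif of SOX factors (ACAAAG or its complement CTTTGT) and of the MYRF motif (CTGGCAC, or CTGGTAC and its complement GTACCAG).
Mog, chr17:37023399-37023648, minus strand: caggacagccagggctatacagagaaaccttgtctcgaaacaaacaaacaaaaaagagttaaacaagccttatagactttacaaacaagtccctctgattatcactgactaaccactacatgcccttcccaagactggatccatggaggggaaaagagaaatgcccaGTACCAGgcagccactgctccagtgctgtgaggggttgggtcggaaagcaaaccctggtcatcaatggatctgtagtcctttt
Opalin, chr19:41077114-41077363, minus strand: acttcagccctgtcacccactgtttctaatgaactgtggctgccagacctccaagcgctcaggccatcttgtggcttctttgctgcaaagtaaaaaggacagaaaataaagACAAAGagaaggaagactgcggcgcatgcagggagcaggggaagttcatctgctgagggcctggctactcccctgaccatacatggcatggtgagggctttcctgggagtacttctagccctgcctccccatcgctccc
Mag, chr7:30914923-30915172, minus strand: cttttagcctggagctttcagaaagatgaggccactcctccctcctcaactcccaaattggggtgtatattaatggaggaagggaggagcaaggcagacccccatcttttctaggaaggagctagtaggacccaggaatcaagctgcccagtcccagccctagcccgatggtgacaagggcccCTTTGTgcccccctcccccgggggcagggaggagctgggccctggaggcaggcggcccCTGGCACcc
The Mog window held a MYRF motif 83 bases before the start, that of Opalin a SOX motif 139 bases before the start, and the Mag window shown a SOX motif 67 bases and a MYRF motif 9 bases before its start. That window was chosen from 3 in the table for Mag. A second holds the same motifs 126 and 68 bases before its own start, and the third holds none of the motifs. The table held 9 windows for 7 of the 9 members, and none for Mbp and Myrf. Of these 9 windows, some of which overlap, 5 held ACAAAG on either strand, 3 held CTGGCAC and 1 held CTGGTAC, against 16.5%, 4.19% and 1.83% of all 32851 windows of the same length. The motifs ACAATG (another SOX core) and CAGCTG (an E-box) were in 0 of the 9 windows, against 10.7% and 13% of all windows. These matches describe the letters of the windows and are not evidence of binding.

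Levels per length of exon differed widely among the genes. In F/M of 3-month controls Mbp stood at 283 ± 3.65 CPM per kb (SD, n = 3), Mal at 117 ± 3.86, Cnp at 111 ± 2.29 and Cldn11 at 93.9 ± 2.49, while Opalin stood at 11.1 ± 0.611 and Myrf at 7.37 ± 0.790. Mbp was highest per length and Mobp second in all 12 groups, and Opalin and Myrf held the last places in all 12. In F/M of 3-month controls no neighbours in the order overlapped between libraries. Mal stood above Cnp in F/M controls of every age and Cnp above Mal in Cb controls of every age, although at 1 month in Cb the libraries of Cnp and Mal overlapped. In Cb of 3-month controls Mobp and Cnp, Mal and Cldn11, and Opalin and Myrf could not be ordered beyond their spread. The annotation of Opalin differed in exon length (2946 bases at 1 month and 1838 at 2 and 3 months), so its place is comparable only within an age.

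The control libraries of the 2 regions differed most in Opalin and Mal. Both, with Cldn11, were lower in Cb than in F/M at every age, and 0 of the 9 genes were higher in Cb past the test at any age. At an adjusted p under 0.1, 4 genes were lower in Cb at 1 month, 7 at 2 months and 4 at 3 months, against 29.7%, 35.4% and 28.2% of all genes tested that were lower in Cb. With a fold change of at least 1.5 as well, 2 genes (Opalin and Mal) were lower at 1 and at 2 months and 3 (with Cldn11) at 3 months, against 21.1%, 21.9% and 19.9% of all genes. In 1-month controls Opalin measured 37.2, 31.0 and 26.1 CPM in F/M but 23.2, 19.5 and 14.8 in Cb. At 2 months it was 18.9, 22.6 and 20.7 CPM against 7.99, 11.3 and 10.7, and at 3 months 21.7, 19.8 and 19.8 against 11.7, 12.1 and 9.61. The libraries did not overlap at any age. On the log2 scale Opalin was lower in Cb by a difference of -0.71 ± 0.19 (SE, adjusted p = 0.00602), -1.05 ± 0.12 (adjusted p = 2.67e-07) and -0.88 at 1, 2 and 3 months. Mal was lower in Cb by log2 differences of -0.64 (adjusted p = 7.15e-05), -0.72 and -0.69. Cldn11 was lower in Cb by log2 differences of -0.40, -0.54 and -0.60. Mbp, the main protein gene of compact myelin, differed by 0.10, 0.00 and -0.03, and Cnp by -0.12, 0.09 and 0.03, none of them past the test. Fold changes between the regions thus ran from well below 0 to about 0 among genes of the same sheath. The dissections differ in many cell types, whose part in this was not tested.

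**Figure D1:**
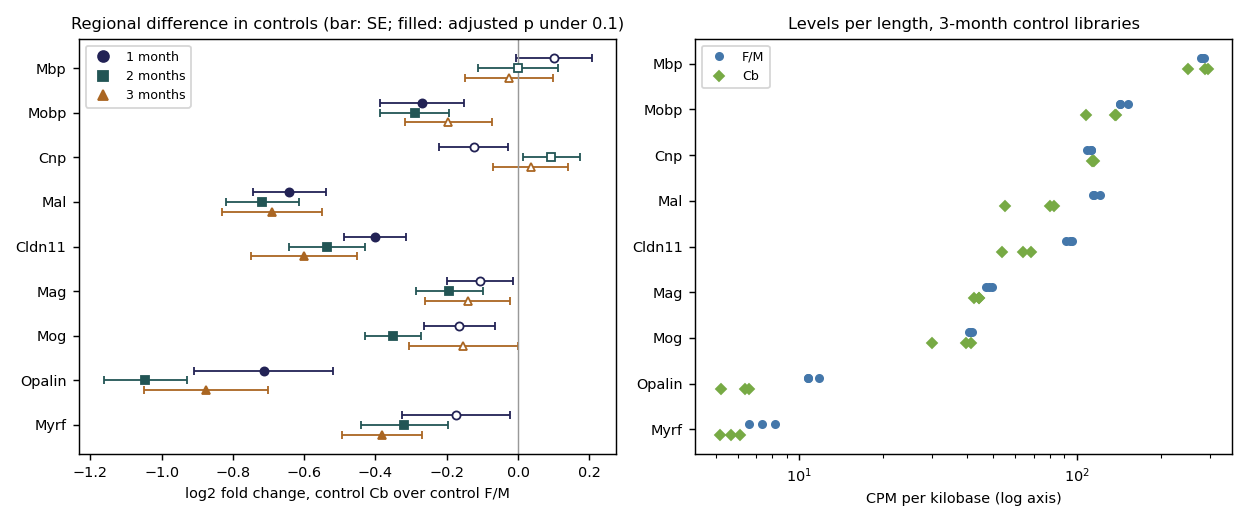
Regional differences in control mice. Left, log2 fold change of Cb over F/M with SE (horizontal axis) for each gene at 1, 2 and 3 months, n = 3 libraries per group. Right, CPM per kb of exon in each 3-month control library of F/M and Cb, on a log axis. Opalin, Mal and Cldn11 lie below 0 at all 3 ages while Mbp and Cnp lie between -0.12 and 0.10.

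Control levels of the set were also lower at the later ages. The summed CPM of the 9 genes in F/M controls was 7422 to 8553 at 1 month, 5361 to 5653 at 2 months and 4573 to 4678 at 3 months. The libraries of each age were counted with a different annotation and, at 2 months, another strand setting, so age and processing cannot be told apart and no test was made of these levels.

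**Figure D2:**
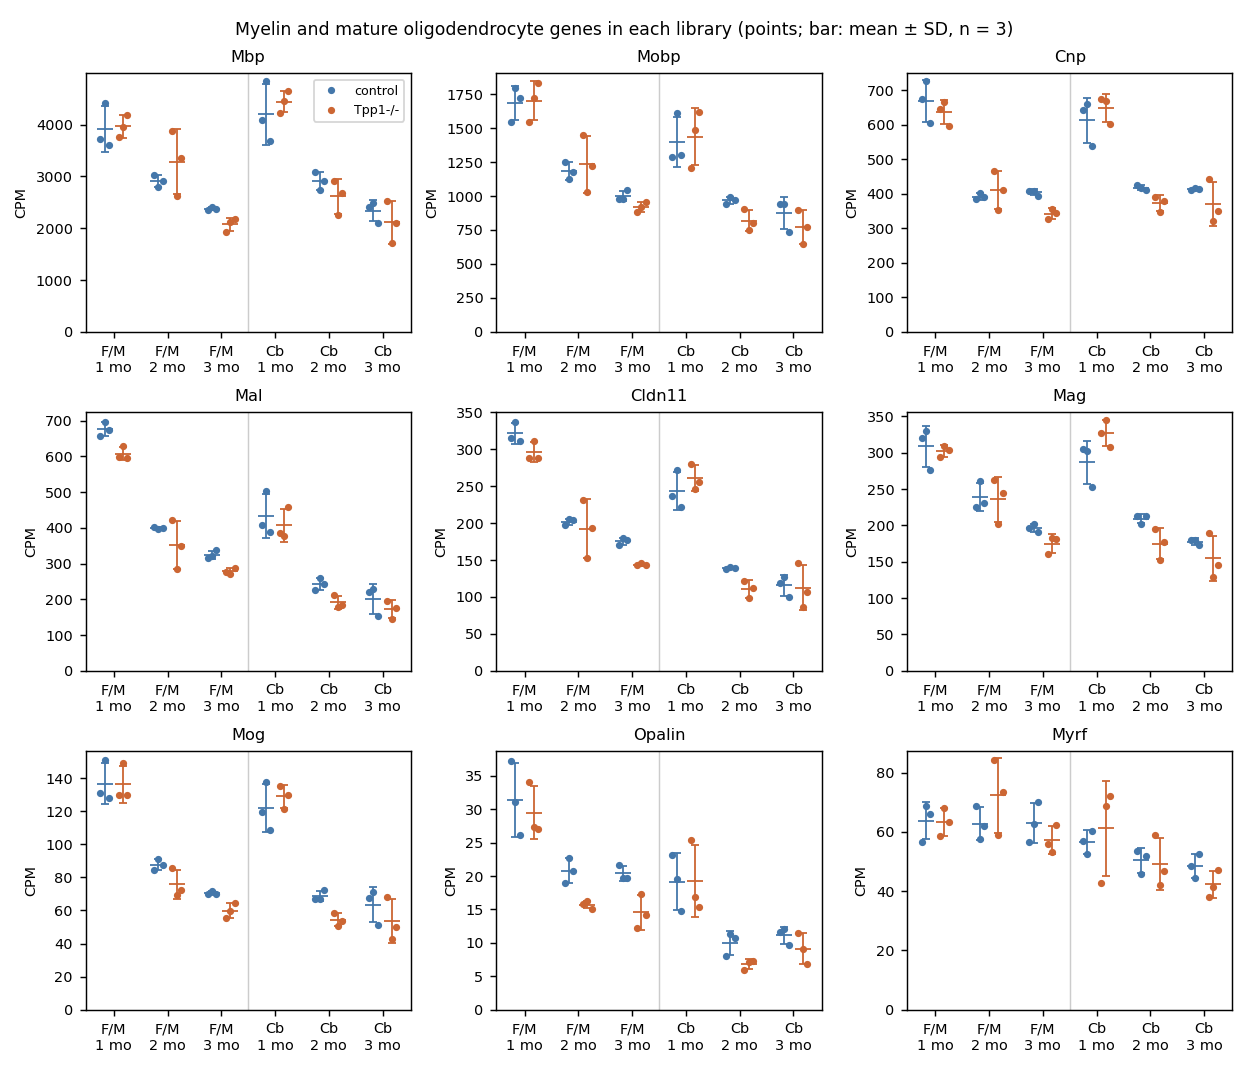
CPM of each of the 9 genes in every library (vertical axis of each panel), by region and age. Blue points are controls and orange points Tpp1-/- mice, with the mean and SD of the 3 libraries of each group; in Cb at 2 months the Tpp1-/- libraries lie below the controls for 7 of the 9 genes.

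At 1 month, 0 of the 9 genes differed between Tpp1-/- and control mice in either region, by edgeR, DESeq2 or limma-voom, and 0 reached an unadjusted p under 0.05 in edgeR, against 1.89% (F/M) and 7.66% (Cb) of all genes. Of all genes tested, 0.0112% passed in F/M and 0.0112% in Cb. In F/M the log2 fold changes lay between -0.15 (Mal) and 0.02 (Mbp), with SEs of 0.09 to 0.19. Mal was 656, 696 and 675 CPM in F/M controls and 599, 629 and 595 CPM in Tpp1-/- mice, the one gene of the 9 whose F/M libraries did not overlap (6.49% of all genes lay wholly below controls). In Cb the fold changes lay between -0.09 (Mal) and 0.19 (Mag). Mag, the periaxonal adhesion protein, was 305, 303 and 253 CPM in Cb controls and 328, 344 and 308 CPM in Tpp1-/- mice. Its 3 Tpp1-/- libraries lay above all 3 controls, as did those of 4.26% of all genes, but the difference did not pass (log2 fold change 0.19 ± 0.09, adjusted p = 0.63).

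At 2 months in F/M, Opalin was the 1 gene of the 9 that fell, against 3.17% of all genes that passed in either direction and 0.905% that fell. It measured 18.9, 22.6 and 20.7 CPM in controls and 15.9, 16.2 and 15.1 CPM in Tpp1-/- mice. All 3 Tpp1-/- libraries were below the lowest control, as were those of 8.84% of all genes, and the fold change was -0.40 ± 0.12 on the log2 scale (adjusted p = 0.0974). This call is at the edge of the threshold and was lost without control replicate 2 or 3 or Tpp1-/- replicate 1 or 3 of F/M, and without Cb control replicate 3 or Cb Tpp1-/- replicate 2 or 3, with 0 of the 9 genes called in each case. In these 7 fits 0.224% to 2.79% of all genes passed, so calls were fewer over all genes as well. The other genes went no single way. The transcription factor gene Myrf had a fold change of 0.21 (adjusted p = 0.415) and Mbp of 0.17 (adjusted p = 0.457), while Mog had -0.21 (adjusted p = 0.198) and Mal -0.18 (adjusted p = 0.392). Mbp was 3022, 2802 and 2916 CPM in controls and 3881, 2628 and 3355 CPM in Tpp1-/- mice. The Tpp1-/- values of Mbp spread on both sides of the controls, with replicate 2 lowest. That replicate was also the lowest of the Tpp1-/- libraries for Cnp, Mal, Mobp, Cldn11, Mag, Mog and Myrf, which leaves Opalin as the exception (285 CPM for Mal, against 421 and 348). Without it, 2 genes passed, Opalin and Mbp, the latter higher in Tpp1-/- mice, against 5.81% of all genes in that fit. Without control replicate 1, Opalin and Mog passed, against 12.6% of all genes. The median fold change of the 9 genes was -0.02.

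Markers of other tissue and cell types moved with genotype in the same F/M libraries. Among them, the study reported the rise of choroid plexus genes at this age, and measured some by qPCR of F/M RNA and by in situ hybridization. Of the hindbrain genes 4 could be tested and 3 were higher in Tpp1-/- mice (Slc5a7, Slc6a5 and Tph2). In controls of this age 2 of the 4, Chat and Slc5a7, were lower in Cb than in F/M, so this list does not mark hindbrain tissue alone. Hoxb2, Hoxb3, Hoxb4 and Hoxa3 of the list had no counts in the F/M controls. Of 9 choroid plexus genes 5 were higher (summed 246 to 633 CPM in controls and 543 to 735 CPM in Tpp1-/- mice). Of 7 astrocyte genes 4 were higher (3894 to 5038 against 5274 to 6594 CPM). The summed CPM of midbrain and thalamus genes was 287 to 359 in controls and 361 to 402 in Tpp1-/- mice. Neuronal genes summed to 7464 to 7611 and 6191 to 7300 CPM, with 1 of 8 (Syp) lower. Forebrain genes summed to 719 to 738 CPM in controls and 642 to 677 CPM in Tpp1-/- mice, with 1 of 10 (Neurod6) lower. With the hindbrain score of each library in the model, Opalin had a log2 fold change of -0.18 (adjusted p = 0.865) and 0 of the 9 genes passed, against 1.2% of all genes. With the midbrain and thalamus score, 4 genes passed (Cldn11, Mag, Mal and Mog, all lower), against 7.06% of all genes, and Opalin did not (-0.36, adjusted p = 0.191). Each score itself differed with genotype, so these fits describe how the values move together and their part in the result was not tested.

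At 2 months in Cb, Opalin and Mog fell, and all 9 fold changes were below 0. This is 2 of 9 genes against 3.08% of all genes in either direction and 2.72% that fell. Opalin was 7.99, 11.3 and 10.7 CPM in controls and 5.93, 7.18 and 7.31 CPM in Tpp1-/- mice, a log2 fold change of -0.58 ± 0.13 (adjusted p = 0.0179). Mog, the surface glycoprotein, was 67.1, 67.0 and 72.1 CPM in controls and 58.6, 50.8 and 53.5 CPM in Tpp1-/- mice, a log2 fold change of -0.34 ± 0.08 (adjusted p = 0.0238). Neither gene overlapped between genotypes. Mal had the same fold change with a wider spread (-0.34 ± 0.10, adjusted p = 0.132). It was 226, 259 and 242 CPM in controls and 213, 178 and 185 CPM in Tpp1-/- mice. For Cldn11 the fold change was -0.33 ± 0.11 (adjusted p = 0.164), from 138, 141 and 139 CPM in controls and 122, 98.5 and 112 CPM in Tpp1-/- mice. Mal and Cldn11 thus had values near that of Mog without passing. Mag (-0.26) and Mobp (-0.24) lay between these and Cnp (-0.16), Mbp (-0.15) and Myrf (-0.03). For 7 genes, all but Mbp and Myrf, every Tpp1-/- library lay below every control, against 10.5% of all genes. The median fold change of the 9 genes was -0.26. None of the 9 genes reached a fold change of 1.5 as well as the threshold in either region at 2 months, against 0.737% of all genes in F/M and 2.05% in Cb.

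The count of Cb calls at 2 months moved with single libraries, in both directions, and with other tissue. Without Cb control replicate 3, 0 of the 9 genes passed, against 2.13% of all genes. Without Cb control replicate 2 Mog alone of the 9 passed (1.89% of all genes), and without Cb Tpp1-/- replicate 2 or 3 Opalin alone (2.2% and 2.33%). Without F/M Tpp1-/- replicate 1 or 2, 4 genes passed in Cb (Cldn11, Mal, Mog and Opalin), against 3.07% and 3.04% of all genes. DESeq2 called 4 genes, against 3.16% of all genes, and the 6 Cb libraries fitted alone gave 5 genes, against 3.88% of all genes in that fit. Midbrain and thalamus genes summed to 289 to 304 CPM in controls and 221 to 256 CPM in Tpp1-/- mice, with 3 of 12 lower, Ntng1 and Slc17a6 among them. The control sum was near that in F/M controls (287 to 359 CPM), although 9 of the 12 genes were lower in control Cb than in control F/M and 1 was higher (largest log2 difference 3.01). In Cb this sum therefore need not measure midbrain or thalamus tissue. Of 10 forebrain genes 2 were lower (Drd2 and Emx2), with mean log2(CPM + 1) of 1.68 to 1.74 in controls and 1.45 to 1.54 in Tpp1-/- mice. Of 9 choroid plexus genes 4 were higher (999 to 1293 against 1622 to 1805 CPM). Of 4 hindbrain genes tested 2 were lower (Chat and Slc5a7), although the 9 listed genes summed to 42.3 to 47.8 CPM in controls and 44.2 to 60.0 CPM in Tpp1-/- mice. With the midbrain and thalamus score in the model 1 of the 9 genes passed (Opalin), against 3.39% of all genes, and with the hindbrain score 4 passed, against 2.36%. The part of dissection in these changes was not tested.

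**Figure D3:**
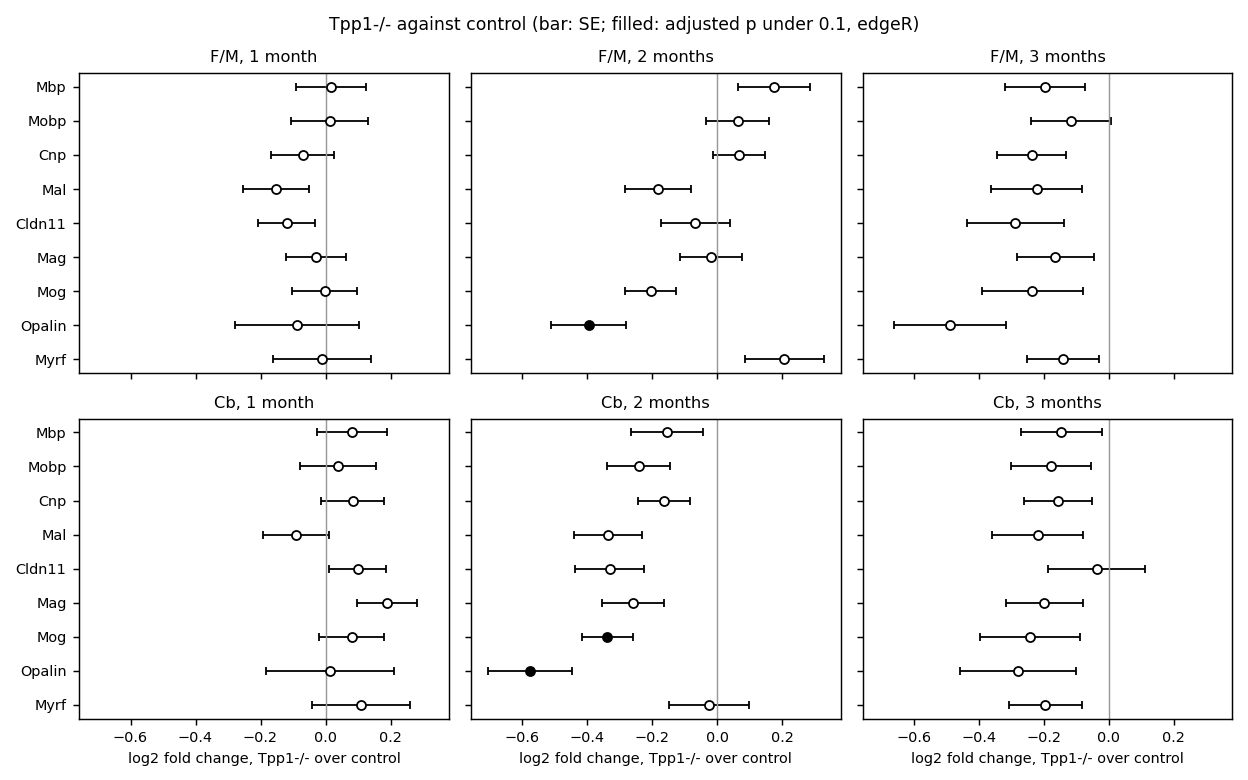
Log2 fold change of Tpp1-/- over control with SE for each of the 9 genes (horizontal axis), in F/M (top row) and Cb (bottom row) at 1, 2 and 3 months, n = 3 libraries per group. Filled points have an adjusted p under 0.1, which are Opalin in both regions and Mog in Cb, all at 2 months.

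At 3 months in F/M, all 9 genes had fold changes below 0 and 0 passed the test, against 0.488% of all genes. DESeq2 and limma-voom also called 0, and 2 genes (Opalin and Cnp) had an unadjusted p under 0.05 in edgeR, as did 5.94% of all genes. For 8 genes, all but Myrf, every Tpp1-/- library lay below every control, against 12.3% of all genes. Opalin was 21.7, 19.8 and 19.8 CPM in controls and 12.2, 17.3 and 14.2 CPM in Tpp1-/- mice, a log2 fold change of -0.49 ± 0.17 (adjusted p = 0.557). Cldn11 was 170.4, 179 and 177 CPM in controls and 143, 145 and 143 CPM in Tpp1-/- mice, a log2 fold change of -0.29 ± 0.15 (adjusted p = 0.9). Both genotypes were tight for Cldn11 in F/M, and its SE came from a spread estimated over all 12 libraries of this age. Cnp was 409, 409.8 and 395 CPM in controls and 326, 357 and 346 CPM in Tpp1-/- mice (log2 fold change -0.24 ± 0.11, adjusted p = 0.81). Mbp was 2351, 2413 and 2377 CPM in controls and 1934, 2124 and 2174 CPM in Tpp1-/- mice. The other fold changes lay between -0.24 (Mog) and -0.12 (Mobp), and the median of the 9 genes was -0.22. When only the 6 F/M libraries of 3 months were fitted, 8 genes passed, all but Myrf, while 11.1% of all genes passed in that fit. Opalin then had an adjusted p of 0.00948 and Cldn11 of 0.000313. The count of genes called thus differed between the fit of F/M alone and the fit shared with Cb. Without Cb Tpp1-/- replicate 1 the shared fit called 1 gene in F/M, Cnp, against 1.61% of all genes.

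In F/M at 3 months the summed CPM of midbrain and thalamus genes was 375 to 394 in controls and 291 to 327 in Tpp1-/- mice, the opposite order to that in F/M at 2 months, and 1 of the 12 genes, Prkcd, was lower by the test. Microglia genes summed to 392 to 413 CPM in controls and 476 to 523 CPM in Tpp1-/- mice, with 0 of 7 past the test. Astrocyte genes summed to 6192 to 6399 and 6429 to 7052 CPM, with 1 of 7 (Gfap) higher, and neuronal genes to 7811 to 7978 and 7457 to 7723 CPM, with 0 of 8 past the test. Forebrain genes summed to 638 to 713 and 567 to 638 CPM, Purkinje cell genes to 1094 to 1132 and 950 to 1018, and granule cell genes to 93.4 to 102 and 78.5 to 91.5. None of these passed the test. The sums of hindbrain, endothelium and choroid plexus genes overlapped between genotypes. The part of these in the values above was not tested.

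At 3 months in Cb, 0 of the 9 genes passed with edgeR, DESeq2 or limma-voom, against 0.952% of all genes in edgeR, and 0 had an unadjusted p under 0.05, against 6.49% of all genes. Fold changes lay between -0.28 (Opalin) and -0.04 (Cldn11), with a median of -0.20, and 0 of the 9 genes had all Tpp1-/- libraries below all controls, against 4.2% of all genes. Within-group spread was wide. Opalin was 11.7, 12.1 and 9.61 CPM in controls and 11.5, 9.02 and 6.85 CPM in Tpp1-/- mice, and Cldn11 was 119.5, 127 and 100.3 CPM in controls and 146, 86.7 and 106 CPM in Tpp1-/- mice. Mog was 67.7, 71.0 and 51.4 CPM in controls and 68.0, 42.7 and 49.9 CPM in Tpp1-/- mice. For Cldn11 and Mog, Tpp1-/- replicate 1 sat within or above the range of control replicates 1 and 2 while the other Tpp1-/- libraries sat near or below control replicate 3. Without Tpp1-/- replicate 1, Cnp, Mag and Mog passed (3 of 9), against 2.66% of all genes. Of the hindbrain genes, Tph2 was 24.0, 20.7 and 0.729 CPM and Slc5a7 7.52, 7.98 and 0.865 CPM in control replicates 1, 2 and 3. Slc6a5 was alike in these controls, at 47.9, 48.2 and 47.1 CPM. Control replicates 1 and 2 are the libraries with the higher sum of hindbrain genes described above. Without both, a fit chosen after seeing the data, 0 of the 9 genes passed, against 6.95% of all genes, and 5 of the 9 fold changes were above 0 (Mal and Cldn11 0.18 each, Mobp and Mog 0.07 each, Mbp 0.01). In that fit the single remaining control was assumed to vary like the other groups. In the same age and region 5 of 7 microglia genes were higher in Tpp1-/- mice (summed 136 to 167 CPM in controls and 256 to 381 CPM in Tpp1-/- mice), as was 1 of 7 astrocyte genes (4211 to 4531 against 4736 to 5281 CPM). The part of these in the members' values was not tested.

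The effect of genotype was not shown to differ between regions or ages. A test of the Cb effect minus the F/M effect called 0 of the 9 genes at each age in edgeR, DESeq2 and limma-voom, against 0%, 2.97% and 0.00581% of all genes, and 0, 1 (Mobp) and 0 genes had an unadjusted p under 0.05, against 1.94%, 11.5% and 3.51% of all genes. All 9 differences were positive at 1 month (median 0.10) and negative at 2 months (median -0.23), and 5 were positive at 3 months. Without F/M Tpp1-/- replicate 2, 3 genes (Cldn11, Mbp and Mobp) passed at 2 months, against 3.61% of all genes. Between ages, 0 of the 9 genes passed in either region by edgeR or limma-voom. The background was 0.0218%, 0.393% and 0.153% of all genes in F/M and 1.28%, 1.44% and 0.458% in Cb, for 1 to 2, 2 to 3 and 1 to 3 months. From 1 to 2 months in Cb the effect changed by -0.58 for Opalin and by -0.45 ± 0.15 for Mag, which had the lowest adjusted p of the 9 genes (0.266), and 4 genes had an unadjusted p under 0.05 (Mag, Opalin, Cldn11 and Mog), as did 8.85% of all genes. From 2 to 3 months in F/M 2 genes (Mbp and Cnp) did so (8.12% of all genes), from 1 to 3 months in Cb 1 (Mag, 7.91%), and in the other 3 comparisons 0 (8.81% from 1 to 2 and 5.41% from 1 to 3 months in F/M, and 6.41% from 2 to 3 months in Cb).

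Other genes of the lineage passed in small numbers. At 1 month and, in F/M, at 3 months, 0 of the 60 genes on 6 lineage lists passed by edgeR, although 0 (F/M, 1 month), 6 (Cb, 1 month) and 11 (F/M, 3 months) had an unadjusted p under 0.05, against 1.89%, 7.66% and 5.94% of all genes. Of the 60 genes, 6 passed at 2 months for F/M and 2 for Cb, and 1 for Cb at 3 months, where 3.17%, 3.08% and 0.952% of all genes passed, so the Cb counts of calls lay near the background. An unadjusted p under 0.05 was reached by 18 of the 60 genes in F/M at 2 months, by 11 in Cb at 2 months and by 10 in Cb at 3 months, against 16.9%, 9.67% and 6.49% of all genes. At 2 months in F/M, 2 of 9 oligodendrocyte transcription factor genes rose (Olig1 by a log2 fold change of 0.46 ± 0.12, adjusted p = 0.0699, and Olig2 by 0.41 ± 0.11, adjusted p = 0.0772), with a median of 0.29 over the list. Of 7 precursor genes 2 rose, Sox6 (0.44, adjusted p = 0.0349), a factor of the precursor state, and Lhfpl3 (0.27, adjusted p = 0.046), and all 7 fold changes were positive (median 0.27). Itpr2 (0.42), of the 7 newly formed oligodendrocyte genes, and Plekhb1 (0.25), of the 18 other mature oligodendrocyte genes, also rose. None of the 12 other myelin and paranode proteins or the 7 myelin lipid synthesis genes passed, and their medians were 0.06 and -0.00. The 6 genes that passed were higher in the same libraries in which Opalin was lower. At 3 months in F/M, where 0 passed, all 18 other mature oligodendrocyte genes had fold changes below 0 (median -0.17), and the medians were -0.11 for the other myelin and paranode proteins and -0.35 for the transcription factors, against -0.00 over all genes.

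At 2 months in Cb, Efnb3 (-0.28 ± 0.08, adjusted p = 0.0825), an ephrin ligand of the 18 mature genes, and Olig1 (-0.43 ± 0.12, adjusted p = 0.0942) of the 9 transcription factors fell. Olig1, which rose in F/M and fell in Cb at that age, differed between the regions by the test of the difference (-0.89 ± 0.17, adjusted p = 0.00704). Of the 60 lineage genes 3 more passed that test, all with a lower effect in Cb, against 2.97% of all genes: Nkx6-2 (-0.82), Lhfpl3 (-0.38) and Gpr37 (-0.33). At 3 months in Cb, Sox10 (-0.48 ± 0.10, adjusted p = 0.0368) fell, the lineage factor that acts with Myrf on myelin genes.

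The levels of most of the 9 genes moved together from library to library. After the mean of each age and region was removed over the 36 libraries, the log2 level of a gene was set against the mean of the other 8. Pearson's r was 0.91 for Cldn11, 0.90 for Mog, 0.87 for Mag, 0.85 for Cnp, 0.82 for Mbp and Mal and 0.78 for Mobp. Opalin followed the others less (0.40), and Myrf hardly (r = 0.13, Spearman's rho = 0.097, and r = 0.0067 without the 2 most extreme libraries). Among the 36 pairs of genes Mag and Cnp were most alike (0.91) and Myrf and Opalin least (-0.43). These values describe libraries that share genotype, dissection and preparation, and correlation with a mean of members is not independent of them.

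**Figure D4:**
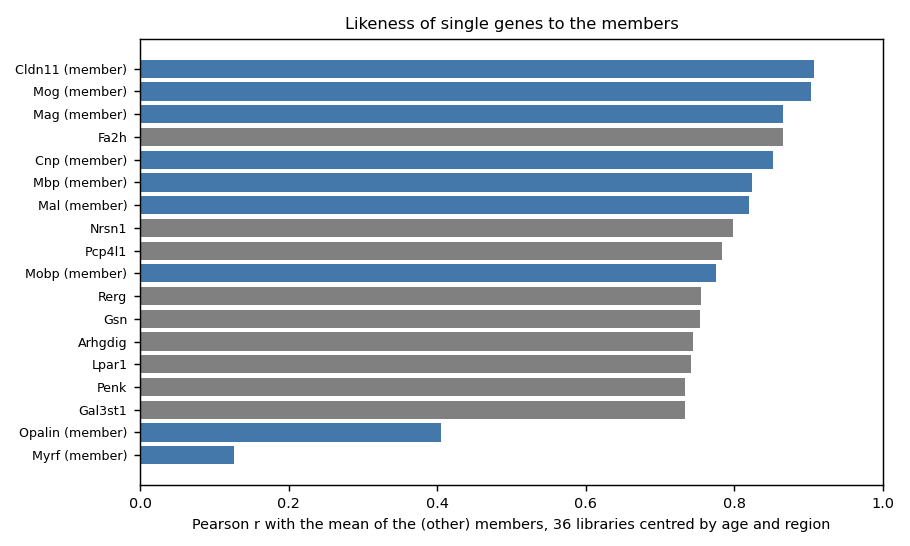
Pearson's r, over 36 libraries after centring by age and region, of each gene's log2 CPM with the mean of the 9 genes (of the other 8 for a member). Blue bars are the 9 genes and grey bars 9 of the 10 other genes most like them; Cldn11 is highest among members at 0.91 and Myrf lowest at 0.13, while Fa2h leads the others at 0.87.

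Of 14940 genes compared in this way, the one outside the set most like its mean was Fa2h (r = 0.87, rho = 0.88, r = 0.82 without the 2 most extreme libraries), which encodes the enzyme making the hydroxylated fatty acids of myelin lipids. Gal3st1 (0.73), which makes sulfatide, and Gsn (0.75) and Lpar1 (0.74), both expressed by oligodendrocytes, were also among the nearest 10, as were Nrsn1 (0.80), Pcp4l1 (0.78), Rerg (0.76), Arhgdig (0.74) and Penk (0.73). Among lists of genes, the mean of the members followed the other mature oligodendrocyte genes (0.82), the myelin lipid genes (0.80) and the other myelin proteins (0.80), followed the oligodendrocyte transcription factors less (0.56), and followed the newly formed (0.23) and precursor genes (0.11) little. It also followed lists with no myelin gene in them, midbrain and thalamus (0.68), forebrain (0.57), endothelium (0.55), neuron (0.44) and hindbrain (0.35), and ran from -0.24 (astrocyte) to 0.10 (choroid plexus) over 5 further lists of at least 5 genes.

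**Figure D5:**
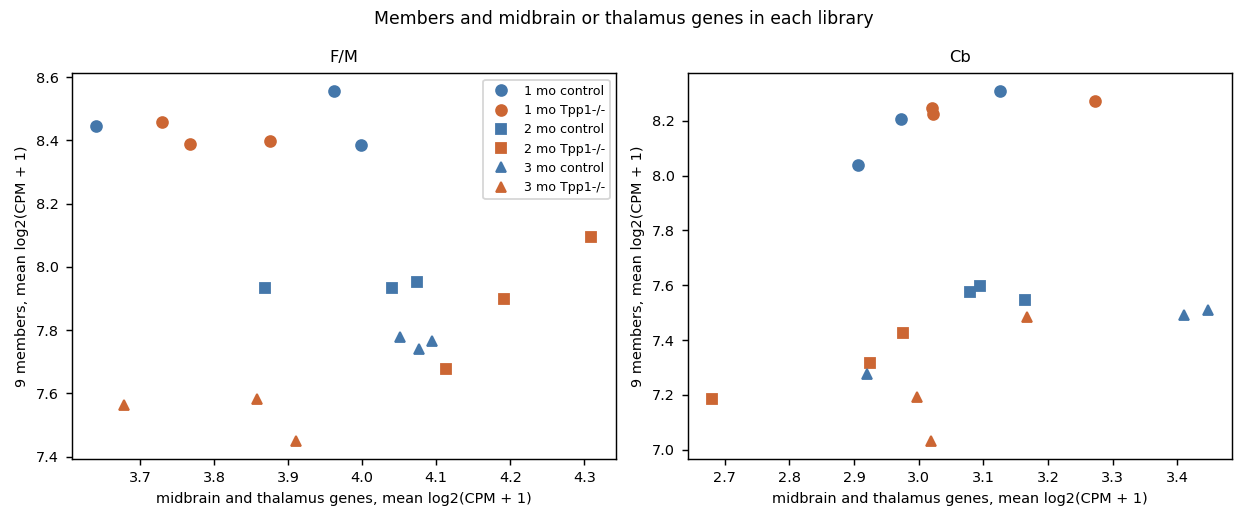
Mean log2(CPM + 1) of the 9 genes (vertical axis) against that of midbrain and thalamus genes (horizontal axis), 1 point per library, F/M left and Cb right, with colour for genotype and shape for age. The relation (r = 0.68 over 36 libraries after centring) was not seen in each group: in F/M at 2 months the midbrain and thalamus values of Tpp1-/- libraries (4.11 to 4.31) lay above those of controls (3.87 to 4.07) while their members' values (7.68 to 8.09) lay on both sides of the controls (7.93 to 7.95).

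When each gene was expressed relative to the mean of the other 8 in the same library, a comparison chosen after the values had been seen and given without a test, the genes separated in other ways. The 9 relative values sum to 0 by construction, so a lower value of one gene raises those of the others. Opalin stood at -0.39 (F/M) and -0.31 (Cb) in log2 at 2 months and -0.30 (F/M) at 3 months in Tpp1-/- mice relative to controls, but its libraries overlapped in each. Mog stood at -0.18 and Mal at -0.17 in F/M at 2 months with no overlap. Myrf stood higher relative to the others at 2 months, by 0.28 in F/M and 0.26 in Cb (where its own fold change was -0.03), as did Cnp by 0.12 in each region and Mbp by 0.24 in F/M, again with no overlap. Cldn11 stood at -0.07 in Cb at 2 months with no overlap. In F/M at 3 months Mobp stood higher by 0.13 and Mbp by 0.04, and in F/M at 1 month Mal stood at -0.12 and Cldn11 at -0.08, each with no overlap. Taken relative to the mean of the 9 genes, 11.9% of all genes separated the genotypes in F/M at 1 month, 10.9% (F/M) and 55.2% (Cb) at 2 months, and 56.9% in F/M at 3 months. In Cb at 2 months and F/M at 3 months that mean was itself lower in every Tpp1-/- library than in every control. Such a shift moves unrelated genes apart on this measure but cancels among the members. These shares are thus not a like background for the members, and nothing is concluded from them.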

How the data were processed

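The authors prepared stranded libraries of polyadenylated RNA, sequenced single 50-base reads, aligned them to mm10 with STAR 2.5.2b and, per the file headers, counted them with featureCounts over GENCODE M21 (1 month), M16 (2 months) or M18 (3 months), with multimapping reads allowed as fractions. The deposited values are whole-number counts per gene. At 2 months the strand setting was the opposite of that at the other ages. Ages were therefore fitted apart. edgeR 4.0.16 quasi-likelihood tests (TMM, filterByExpr, 12 libraries and 4 groups per age) gave log2 fold changes and Benjamini-Hochberg adjusted p-values over all 17916, 17229 and 17224 genes tested, and a gene was called at an adjusted p under 0.1. A model of 36 libraries compared effects between ages. DESeq2 1.42.0 and limma-voom (limma 3.58.1) were alternatives, as were other filters, thresholds, sample sets and covariates. The edgeR fit was tested on simulated data. CPM used TMM-scaled library sizes. With 3 libraries against 3 an exact permutation test cannot go below 0.1, so none is given. Scores are mean log2(CPM + 1) over the genes of a list that passed the count filter, which for the hindbrain list were 4 of 9. Summed CPM covers all listed genes in the annotation. The members and gene lists were chosen with earlier results of these data known. All 9 members are named, with lineage-list genes at an adjusted p under 0.1 between genotypes or in the region difference of that effect, and 9 of the 10 genes most like the members' mean. A few genes are not reported here. The marker genes of other tissue were named after their values were seen.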

Additional observations from a re-analysis of the deposited data

Results flagged for a closer look

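Mag in Cb was singled out because its Tpp1-/- libraries lay on opposite sides of the controls at 2 ages. At 1 month all 3 Tpp1-/- libraries were above all 3 controls, and at 2 months (195, 153 and 177 CPM against 213, 202 and 213 CPM) all 3 were below. The log2 effect at 2 months minus that at 1 month was -0.45, with an adjusted p of 0.266 in the edgeR model of all ages, which does not pass.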

How the results depend on the processing

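Of 518 recomputed counts of genes called, 483 stayed within 1.5 times the main count, and 35 did not. Of 1242 recomputed fold changes of single genes 69 lay on the other side of 0, none of them of a gene called in either fit, and 16 of the 69 had a reported size of at least 0.1. A call was lost in 17 and gained in 36, and 59 of the others moved by more than their SE. In Cb at 2 months (2 genes called) DESeq2 gave 4, no count filter 6 (2.35% of all genes), the 6 Cb libraries alone 5, the midbrain and thalamus score 1, the hindbrain score 4, and a fold change of at least 1.5 gave 0. In F/M at 2 months (1 called) an adjusted p under 0.05 (1.14% of all genes), a fold change of 1.5, the 6 F/M libraries alone (0.574%) and the hindbrain score each gave 0, and the midbrain and thalamus score 4. In F/M at 3 months the 6 F/M libraries alone gave 8 (0 with all 12 libraries of that age). The difference between regions at 2 months gave 1 with no count filter (Mbp, against 2.44% of all genes). Between regions in controls a fold change of 1.5 left 2 genes at 1 month and 2 at 2 months. The causes of these moves were not tested.

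Leaving out 1 library at a time gave 0 to 0 genes at 1 month in F/M and in Cb (0.00546% to 0.0109% and 0.00545% to 8% of all genes), 0 to 2 (F/M) and 0 to 4 (Cb) at 2 months, and 0 to 1 (F/M) and 0 to 3 (Cb) at 3 months. At 2 months 0.224% to 12.6% (F/M) and 1.89% to 3.89% (Cb) of all genes passed in these fits, and at 3 months 0.193% to 1.61% and 0.626% to 2.66%. For controls between regions it gave 3 to 5, 5 to 7 and 4 to 6 at 1, 2 and 3 months, where 52.6% to 64.4%, 64.6% to 69.8% and 50.1% to 66.2% of all genes passed in either direction. The difference between regions gave 0 to 3 at 2 months (1.85% to 4.77% of all genes), and the difference between ages in Cb 0 to 1 (1 to 2 months) and 0 to 3 (1 to 3 months), with Mag at 1 to 2 months called without Cb Tpp1-/- replicate 1 of 3 months. Without that library 1.87% (1 to 2 months) and 8.52% (1 to 3 months) of all genes passed, against 1.28% and 0.458% with it. In Cb at 2 months the adjusted p of Opalin ran from 0.000438 to 0.155 and that of Mog from 0.00227 to 0.525 over all alternatives, and that of Opalin in F/M from 0.013 to 0.865. Libraries of the same replicate number carried the same sex label, and whether the regions came from the same mouse is not stated. The r of their deviations was -0.12 to 0.27 over 36 pairs, 14 of them over 0.1. All 3 pairs of a set exceeded 0.1 in 1 of 12 sets, the controls of both regions at 1 month (0.230, 0.146 and 0.160). With the replicate block the counts of the 9 genes called were unchanged (4 for controls between regions at 1 month, 1 gene for F/M at 2 months, 2 for Cb). Counting error, relative to level, was largest for Opalin, with counts of 117 to 817, and its part in the spread was not separated.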
